A study of Mus musculus with 6 samples.

Results

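The regions described here are the shared ends of neighbouring gene pairs, that is, the stretches of DNA where an end of one protein-coding gene lies within 1000 bp of an end of another. Pairs were taken from the protein-coding gene spans of the mouse genome on chromosomes 1 to 19 and X (build GRCm38, whose coordinates are those of mm10), and pairs with overlapping spans were left out. Each member is the interval between the 2 ends widened by 500 bp on each side. The rule uses the annotation only and no measured value. Of 21517 gene spans, 3684 (17.1%) were in such a pair, and the 2052 members made up part of 41010 windows at gene ends, the other 38958 being single ends widened by the same 500 bp. A total of 415 genes belonged to 2 pairs or more, 1325 members held genes of no other pair, and 37 windows overlapped a neighbouring member, so members are not independent of each other.

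The libraries were made by ATAC-seq, in which a transposase cuts accessible DNA, from urothelial cells, the cells that line the bladder. The groups were 3 Stag2-KO libraries and 3 Stag2-WT libraries, all collected 1 week after the start of a TMX diet from GFP-positive, DAPI-negative cells of peeled urothelium, with 50000 cells per condition, so the WT mice had the same diet and the same sort as the KO mice. Stag2 codes for a cohesin subunit. The labels used here do not give the allele, the Cre driver, the age or the number of mice behind a library, and p-values measure only the spread between these 6 libraries. Each library had its own peak list, with 181987 to 299636 peaks, or 149153 to 260462 distinct intervals, and the depth behind the lists is not known. Intervals were ranked within a library by the fold over local background that the authors' peak caller gave, where rank 1 is the highest fold. A window was called open in a library when it overlapped 1 of the 50000 best-ranked intervals by at least 1 bp. Of these 50000 intervals, 21.0%, 21.2% and 19.1% overlapped a gene-end window in the KO libraries, against 19%, 18.3% and 18.2% in the WT libraries. Of 19 urothelial marker genes, 10 were open at an end in each KO library, against 8, 7 and 9 in the WT libraries, and none of Krt5, Krt8, Krt18, Krt19, Grhl3, Foxa1, Gata3 and Trp63 was open by this measure in any library. Of 6 fibroblast, 5 smooth muscle, 5 endothelial and 6 leukocyte markers, at most 2 of each list were open in any library. No member held an end of Stag1 or Stag2.

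Genes lie close together in 3 ways. In a head-to-head pair the 2 genes point away from each other, so that both transcription start sites lie at the shared end, and such a stretch is often called a bidirectional promoter. In a tail-to-tail pair both genes end there, and in a head-to-tail pair the end of one gene meets the start of the next. Bidirectional promoters in mammals are usually rich in CpG and tend to serve housekeeping genes such as those of DNA repair and mitochondria. The strand of both genes was known for 1470 members: 581 were head to head, 457 head to tail and 432 tail to tail. The remaining 582 were not classed. The ends of head-to-head pairs lay closest, with an interquartile range of 49 to 229 bp between them, against 215 to 695 bp for head-to-tail and 140 to 608 bp for tail-to-tail pairs.

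The DNA between the 2 starts of a few head-to-head pairs is shown first, because it is short enough to read as one element. These are textbook pairs, pairs among those with the best mean rank, and pairs discussed below for their values in KO and WT libraries. Sequences are from RefSeq (GRCm38.p6), 5′ to 3′, from the base after the end of the left gene to the base before the start of the right gene. Capitals mark matches, on either strand, to the CCAAT box bound by NF-Y, the GC box GGGCGG bound by SP factors, the ETS motif CCGGAAG, the NRF1 core GCGCATGC and the E2F motif TTTGGCGC. A match in letters is a description and not a measured binding site.
Brca1/Nbr1, chr11:101551956-101552106, plus strand: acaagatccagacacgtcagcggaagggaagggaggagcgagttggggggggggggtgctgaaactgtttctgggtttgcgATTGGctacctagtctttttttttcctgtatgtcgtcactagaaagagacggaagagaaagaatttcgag
Atm/Npat, chr9:53536829-53536888, plus strand: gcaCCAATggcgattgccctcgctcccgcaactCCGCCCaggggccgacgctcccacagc
Pcna/Cds2, chr2:132253181-132253337, plus strand: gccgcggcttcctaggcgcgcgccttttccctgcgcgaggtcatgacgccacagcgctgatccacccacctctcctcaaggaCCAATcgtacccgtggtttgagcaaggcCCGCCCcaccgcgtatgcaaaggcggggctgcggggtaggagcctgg
Psmb9/Tap1, chr17:34187331-34187555, plus strand: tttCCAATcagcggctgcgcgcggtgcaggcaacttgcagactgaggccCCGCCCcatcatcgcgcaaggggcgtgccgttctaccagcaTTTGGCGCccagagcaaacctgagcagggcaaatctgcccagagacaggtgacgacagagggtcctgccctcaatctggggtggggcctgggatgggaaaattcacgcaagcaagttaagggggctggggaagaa
Mrps12/Sars2, chr7:28741822-28741956, plus strand: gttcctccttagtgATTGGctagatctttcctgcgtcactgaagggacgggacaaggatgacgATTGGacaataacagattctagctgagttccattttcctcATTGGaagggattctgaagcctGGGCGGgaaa
Hepacam2/Vps50, chr6:3498323-3498392, plus strand: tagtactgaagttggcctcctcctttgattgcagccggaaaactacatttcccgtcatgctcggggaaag
Pdzd11/Kif4, chrX:100625949-100626064, plus strand: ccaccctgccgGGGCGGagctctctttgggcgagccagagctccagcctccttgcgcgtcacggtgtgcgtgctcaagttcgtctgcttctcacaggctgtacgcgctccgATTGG
Xrcc4/Tmem167, chr13:90089609-90089666, plus strand: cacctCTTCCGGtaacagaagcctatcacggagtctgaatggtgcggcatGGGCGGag
Taf6/Cnpy4, chr5:138187452-138187534, plus strand: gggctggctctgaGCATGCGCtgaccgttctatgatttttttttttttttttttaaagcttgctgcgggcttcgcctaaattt
H2ac12/H2bc12, chr13:22035644-22035820, plus strand: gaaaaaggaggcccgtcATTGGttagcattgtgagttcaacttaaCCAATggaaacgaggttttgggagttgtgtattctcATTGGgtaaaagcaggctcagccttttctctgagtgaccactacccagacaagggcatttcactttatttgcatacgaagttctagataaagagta

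The first 5 of these belong to genes of well-known function. Brca1 and Atm act in the response to DNA breaks, Nbr1 codes for an autophagy receptor and Npat for an activator of histone genes. Pcna codes for the sliding clamp of DNA replication and Cds2 for an enzyme of phospholipid synthesis. Psmb9 and Tap1 code for a subunit of the immunoproteasome and for a subunit of the peptide transporter of antigen presentation. Mrps12 and Sars2 code for a protein of the mitochondrial ribosome and for the mitochondrial seryl-tRNA synthetase. All 5 stretches hold a CCAAT box in one direction or the other, with 3 matches between Mrps12 and Sars2 and 3 between the core histone genes H2ac12 and H2bc12. The stretch between Hepacam2 and Vps50 held none of the motifs searched.

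The shared ends of gene pairs were open far more often than single gene ends, and openness went with the starts. Head-to-head ends were open in 91.4%, 89.7% and 89.8% of cases in KO libraries 1 to 3, against 89.8%, 84.2% and 87.3% in WT libraries 1 to 3. Head-to-tail ends were open in 55.8%, 56.7% and 54.3% in the KO libraries and in 56.0%, 52.3% and 51.9% in the WT libraries. Tail-to-tail ends were open in 6.02%, 7.87% and 6.48% in the KO libraries and in 7.41%, 7.41% and 7.18% in the WT libraries. The 3 classes kept this order in each of the 6 libraries. The 95% Wilson intervals, which cover the counting of windows only, ran from 80.97% to 93.4% over the head-to-head shares, from 47.3% to 61.1% over the head-to-tail shares and from 4.14% to 10.8% over the tail-to-tail shares.

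**Figure D1:**
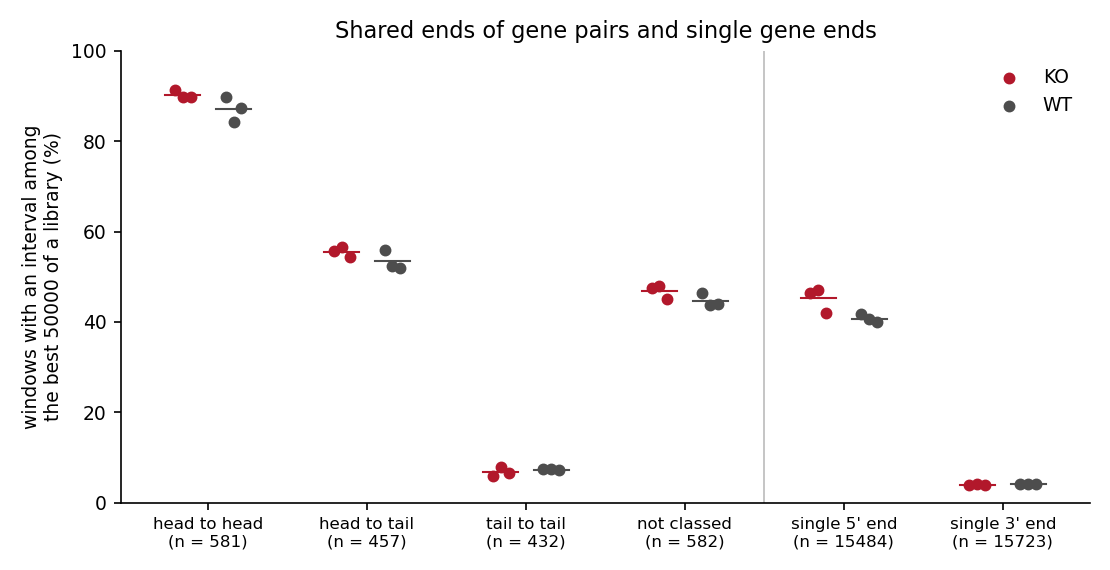
Share of windows with an interval among the best 50000 of a library (y axis, %), for the 4 classes of gene pairs and, right of the line, for single gene ends of known strand. Each point is a library, KO left of WT, and short lines are means of 3 libraries. Head-to-head ends sit between 84.2% and 91.4%, while tail-to-tail ends stay at or below 7.87%.

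All members together were open in 49.4% to 53.3% of cases over the 6 libraries, against 21.9% to 25.6% of single ends. The difference within a library averaged 28.4 percentage points (SD 0.95, higher in 6 of 6 libraries, two-sided exact sign-flip permutation test over libraries, p = 0.03125, the smallest p that 6 libraries allow). In median −log2 rank, with a window without an interval among the best 100000 set to rank 100001, members were 1.11 above single ends (SD 0.0998, 6 of 6 libraries, exact permutation test, p = 0.03125). Only 30.5% to 32.7% of single ends had such an interval, so their median was the set rank of 100001 in all 6 libraries. The difference in medians is therefore the distance of members from a set value, and it could not have been negative. Head-to-head ends exceeded tail-to-tail ends by 81.6 points (SD 2.96) and head-to-tail ends by 34.2 points (SD 1.57), each in 6 of 6 libraries (exact permutation test, p = 0.03125 each, and 0.03125 after Benjamini-Hochberg adjustment over the 2 pairs of classes). When the rank list was shortened to 50000, the difference in median −log2 rank was 0.12 with p = 0.0625 in the exact permutation test.

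The classes were then set against single ends of the same kind. A head-to-head window holds 2 starts and a single 5′ window 1, and member windows are wider by the distance between the ends. Both give more chances to meet an interval, here and below. The part of holding 2 starts in the differences was not tested. Single 5′ ends were open in 40.0% to 47.1% of cases, and single 3′ ends in 3.87% to 4.18%. Head-to-head ends exceeded single 5′ ends by 45.7 points (SD 2.35), head-to-tail ends exceeded single 5′ ends by 11.5 points (SD 1.84), and tail-to-tail ends exceeded single 3′ ends by 3.01 points (SD 0.566). Each difference had the same sign in 6 of 6 libraries (exact permutation test, p = 0.03125 each, also after adjustment over the 3 comparisons). Predicted, olfactory and keratin-associated genes, which are often silent, are rare among head-to-head pairs. Without them head-to-head ends exceeded single 5′ ends by 39.1 points (SD 2.55).

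Genes kept this contrast between their 2 ends. The 692 starts of genes whose other end was in a tail-to-tail pair were open in 52.7% to 62.0% of cases. The 981 3′ ends of genes in head-to-head pairs were open in 4.49% to 5.30%, close to the 3.87% to 4.18% of single 3′ ends.

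Head-to-head intervals were also wider and stronger than those at single 5′ ends. The median width was 835, 893 and 856 bp in the KO libraries and 961, 923 and 919 bp in the WT libraries, and it exceeded that at single 5′ ends by 109 bp (SD 19.1). The median of the authors' fold over local background was 2.66 higher (SD 0.538). Among windows with an interval, those holding 2 or more summits of the whole list were 17.0 percentage points more common (SD 0.993). Head-to-head windows are wider by the distance between the starts. Their share with 2 or more summits was 71.3% to 82.1% at up to 100 bp and 86.5% to 94.3% above 500 bp. An interval among the best 5000 of a library was 6.85 points more common (SD 4.70). Each of these 4 differences was positive in 6 of 6 libraries (exact permutation test, p = 0.03125 each, also after adjustment over the 4). The share among the best 5000 varied most, at 17.0%, 4.13% and 15.5% in the KO libraries and 19.3%, 4.82% and 12.9% in the WT libraries, so replicate 2 was low in both genotypes.

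Openness at head-to-head ends was mostly shared by all libraries. Of 581 head-to-head ends, 477 (82.1%) were open in all 6 libraries and 40 were open in none. The corresponding shares in all 6 libraries were 45.3% (207 of 457) for head-to-tail ends, 3.47% (15 of 432) for tail-to-tail ends, 35.8% for single 5′ ends and 2.53% for single 3′ ends.

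Head-to-head ends were open at similar rates up to 500 bp between the starts. Head-to-head ends were open in 85.8% to 92.7% of cases at up to 100 bp (288 pairs), in 84.2% to 89.7% above 100 and up to 250 bp (165 pairs), in 88.4% to 96.5% above 250 and up to 500 bp (86 pairs) and in 64.3% to 78.6% above 500 bp (42 pairs). The range of the widest class lay below those of the other 3, but it holds the fewest pairs and its windows are the widest. These shares were not tested. At the limit of the rule, the 2 members with ends 1000 bp apart were Gm30191/Grrp1, tail to tail, and Pcgf2/Psmb3, head to head. Pcgf2/Psmb3 ranked 20364, 41157 and 24319 in the KO libraries and 15623, 44022 and 20568 in the WT libraries. Just outside it were Pigz/0610012G03Rik, tail to tail at 1002 bp, which had no interval in any library, and Ankrd34a/Lix1l, head to tail at 1007 bp. Ankrd34a/Lix1l ranked 24554, 33584 and 28567 in the KO libraries and 44688, 43025 and 34714 in the WT libraries, so it was open in all 6.

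**Figure D2:**
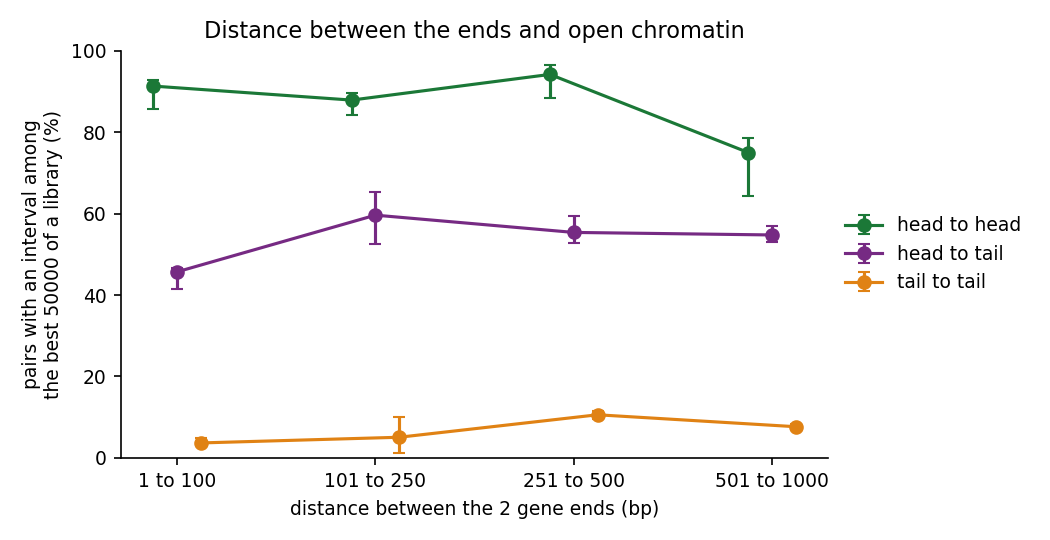
Share of pairs with an interval among the best 50000 of a library (y axis, %) by the distance between the 2 gene ends (x axis, bp), for the 3 orientations. Points are medians of the 6 libraries and bars run from the lowest to the highest library. Head-to-head pairs stay above 84% up to 500 bp and lie between 64.3% and 78.6% beyond it.

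Within head-to-head ends, the summit of the best interval lay close to the starts. A start here is the end of the annotated span, which was also the start in the RefSeq promoter table for 672 of 1154 genes. The summit was within 150 bp of the stretch between the starts in 83.8% to 85.2% of intervals, and inside that stretch in 39.5% to 47.0%. The share inside differed with the room between the starts: 26.2% to 31.9% at up to 100 bp, 48.7% to 59.5% up to 250 bp, 59% to 63.9% up to 500 bp and 56.8% to 74.3% up to 1000 bp. The summit was a median of 28.5 to 34 bp from the nearer start in the closest pairs and of 68 to 84 bp in the widest. For 549 pairs with an interval in all 6 libraries, the summit position varied by a median of 21 bp between the highest and lowest library, and by at most 50 bp in 75.8% of them.

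**Figure D3:**
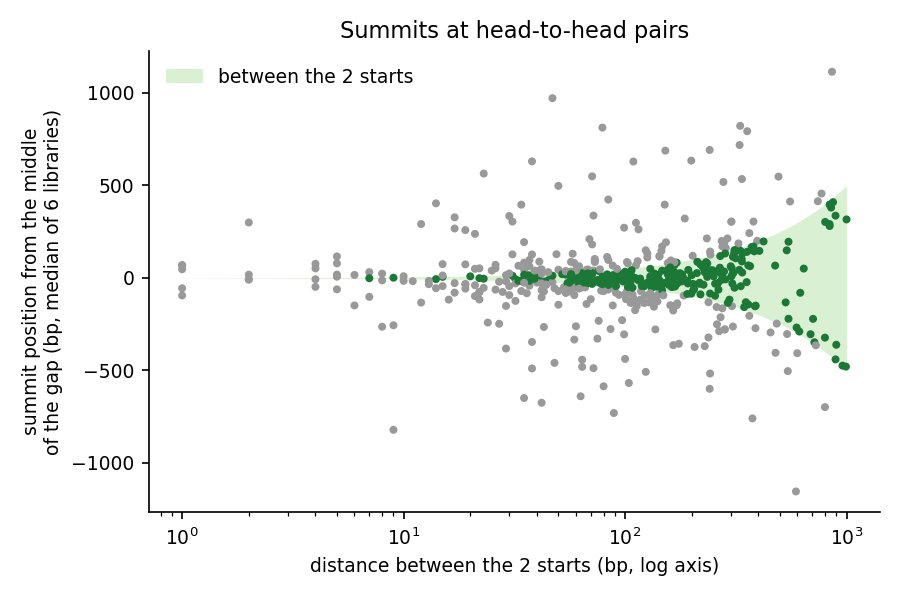
Position of the summit from the middle of the stretch between the 2 starts (y axis, bp, median of 6 libraries, positive towards the right-hand gene) against the distance between the starts (x axis, bp, log axis), for 549 head-to-head pairs. The shaded area is the stretch between the starts. The 249 green points (45.4%) fall inside it.

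Single pairs showed both patterns. At Pcna/Cds2 the summit lay at −1, 0 and −1 bp from the middle in the KO libraries and at −5, −11 and −8 bp in the WT libraries. At H2ac12/H2bc12 it lay at −21, −9 and −4 bp in the KO libraries and at −11, −8 and −6 bp in the WT libraries. At Brca1/Nbr1 the strongest summit was not between the starts but 660, 665 and 700 bp towards Nbr1 in the KO libraries and 703, 683 and 693 bp in the WT libraries, in an interval of up to 1421 bp.

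The promoters of head-to-head genes differed in sequence from those of other genes. RefSeq gave a stretch from 250 bases before to 50 bases after the start for 17273 protein-coding genes, among them 1154 genes of head-to-head pairs. Their median GC content was 61.7%, against 56.3% for all promoters, and the median ratio of observed to expected CpG was 0.841 against 0.586. Of the 1154, 672 had this start at the end of the annotated span, and the promoters of a close pair share bases, so they are not separate counts.

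Some motifs were more and some less frequent. On either strand the ETS motif CCGGAAG was in 27.2% of head-to-head promoters, against 12.1% of all promoters. The YY1 motif AAGATGGC was in 8.93% against 3.23%, the NRF1 core GCGCATGC in 6.50% against 3.64%, the GC box GGGCGG in 66.1% against 46.9%, and the CCAAT box in 45.7% against 39.6%. The E2F motifs TTTCGCGC or TTTGGCGC were in 2.60% against 1.10% and the cAMP response element TGACGTCA in 3.73% against 2.36%. The letters TATAAA were in 5.81% against 13.4%, the AP-1 motif TGANTCA in 3.64% against 7.09%, and the cell cycle homology motif TTTGAA in 10.8% against 16%. Promoters at single 5′ ends open in all 6 libraries came closer: they held the ETS motif in 20.5%, YY1 in 4.76%, the GC box in 65.9% and TATAAA in 6.95%, with a CpG ratio of 0.775. They held the NRF1 core in 6.12% and the cAMP response element in 3.95%, the latter above the 3.73% of head-to-head promoters. In the 411 stretches between head-to-head starts with full sequence, the GC box was found in 40.4%, the CCAAT box in 30.7% and the ETS motif in 10.2%.

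CpG content went with openness, and where promoters had a CpG ratio of 0.6 or more, head-to-head ends were above single 5′ ends. Where both promoters were at 0.6 or more (457 pairs), 89.9% to 96.3% were open, against 64.1% to 75.3% of the 7110 single 5′ ends at 0.6 or more. The difference averaged 24.8 points (SD 3.74, 6 of 6 libraries, exact permutation test, p = 0.03125). Where 1 or both promoters were below 0.6 (124 pairs), 62.9% to 73.4% were open, against 19.6% to 23.2% of 8374 single 5′ ends. The 124 include pairs with 1 promoter at 0.6 or more. All of these single 5′ ends were below 0.6, so CpG content was not matched. The cut of 0.6 was added after the data had been seen.

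The best-ranked members included genes of DNA repair, cell division and membrane traffic. Over the 6 libraries the best mean rank belonged to Ap4e1/Blvra (head to tail, 815 bp apart), with ranks 152, 763 and 72 in the KO libraries and 174, 429 and 109 in the WT libraries. Ap4e1 codes for a subunit of an adaptor complex of vesicle traffic and Blvra for biliverdin reductase. Hepacam2/Vps50 held ranks 595, 547 and 510 in the KO libraries and 431, 480 and 313 in the WT libraries, the narrowest spread of the 10 best. Pdzd11/Kif4, with the chromosome-bound kinesin Kif4, held 261, 1003 and 544 against 134, 1249 and 336. Xrcc4/Tmem167, with the end-joining factor Xrcc4, held 427, 2206 and 573 in the KO libraries and 376, 3520 and 636 in the WT libraries. Replicate 2 had the highest rank numbers of both genotypes at Pdzd11/Kif4 and Xrcc4/Tmem167, and the genotypes overlapped at both.

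The other members of the 10 were Zswim3/Zswim1, Mrpl50/Zfp189, Cdca8/9930104L06Rik, Clip3/Alkbh6, Sra1/Apbb3 and Tctn3/Entpd1. Cdca8 codes for borealin of the chromosomal passenger complex and Mrpl50 for a protein of the mitochondrial ribosome. Their ranks ran from 93 to 3525 over the 6 libraries.

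Of 13 textbook pairs looked for, 7 were members, and each was open in all 6 libraries. Atm/Npat ranked 4193, 12449 and 4833 in the KO libraries and 2993, 12297 and 4520 in the WT libraries. Brca1/Nbr1 ranked 5923, 15369 and 6840 in the KO libraries and 6840, 18749 and 9973 in the WT libraries. Psmb9/Tap1 ranked 21966, 30739 and 22093 in the KO libraries and 22590, 34603 and 28357 in the WT libraries. KO and WT ranks overlapped at these 3 pairs.

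Mrps12/Sars2 ranked 20376, 22663 and 6510 in the KO libraries and 4495, 13246 and 4155 in the WT libraries, which overlap through KO replicate 3. Mcm4/Prkdc, a subunit of the replicative helicase beside the catalytic subunit of DNA-dependent protein kinase, ranked 16787, 25384 and 13466 in the KO libraries and 8758, 35805 and 13859 in the WT libraries. At Gart/Son and Pcna/Cds2 the genotypes overlapped as well. Among pairs with a cytosolic ribosomal protein, Rpl9/Lias had the best mean rank, with 6475, 10097 and 6651 in the KO libraries and 8444, 12293 and 8751 in the WT libraries.

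Gene groups differed in how often their genes shared an end. A pair held 44.6% of 92 DNA repair genes (41 genes), 43.6% of 220 genes of the mitochondrial ribosome and respiration (96 genes) and 33.7% of 178 genes of splicing and RNA polymerase (60 genes), against 17.1% of all genes. It held 9.23% of 65 urothelial genes (6 genes) and 0.497% of 1609 olfactory and keratin-associated genes (8 genes). Of the 29 head-to-head ends with a DNA repair gene, 28 were open in all 6 libraries, and of the 46 with a mitochondrial gene, 39. Of the 10 with a cytosolic ribosome gene 7 were, and of the 10 with histone genes 6. These stand beside 477 of 581 (82.1%) of all head-to-head ends, to which the mitochondrial share was near. Replication-dependent histone genes, which lie in clusters, had 43 of 67 genes in 25 members, each with a histone gene on both sides. Neighbouring histone members often shared an interval.

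Exceptions ran in both directions. These were chosen after their values were seen. Of the head-to-head ends, 11 had no interval in any whole list. They included the major urinary protein pairs Mup15/Mup-ps12 and Mup19/Mup-ps16 and the olfactory receptor pair Olfr181/Olfr183, whose nearest open interval was 72200 bp or more away. At others an open interval lay just outside the window: 282 to 293 bp away at Stat5b/Stat5a, 413 to 484 bp at Best1/Rab3il1 and 945 to 958 bp at Rnf151/Rps2, which has the gene of a ribosomal protein. Of the head-to-head ends that were not open, between 15.2% and 25% per library had an open interval within 1000 bp of the window. The 15 tail-to-tail ends open in all 6 libraries included Smim27/Ndufb6, with ranks 5003, 16450 and 6176 in the KO libraries and 5873, 14398 and 7823 in the WT libraries. Atg7/Vgll4, with the autophagy gene Atg7, had ranks 14156, 17892 and 13909 in the KO libraries and 3159, 17309 and 15341 in the WT libraries. Rnaseh2c/Kat5, with an RNase H2 subunit and a histone acetyltransferase, was among them.

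The study asked how the loss of Stag2 changes chromatin in these cells. For each window held by at least 3 libraries among their best 100000 intervals, the −log2 ranks were compared between KO and WT with limma, and p-values were adjusted over all 13679 windows. A positive gain means a better rank in KO. Of the members, 1264 were tested and 788 were not. None of the 1264 was called at an adjusted p below 0.05, against 4 higher (0.0292%) and 12 lower (0.0877%) of all windows, 0.117% together. The smallest adjusted p of a member was 0.216 (limma). At an unadjusted p below 0.05, 72 members (5.70%) were higher and 17 (1.34%) lower in KO, against 11.2% and 2.2% of all windows. With a block on the replicate number, 165 members were higher and 53 lower at that unadjusted threshold, and none was called. The share of all windows under this block is not given here, so these counts do not set members apart. The ranks of the 2 genotypes did not overlap at 165 members (13.1%), against 18.5% of all windows.

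The counts depended on single libraries. Without KO replicate 3, 19 members were called higher and 9 lower, beside 637 and 125 of all windows, and without WT replicate 2, 3 members were called in each direction. With the gene-end share of each library as a covariate no window was called, and 12 members were higher and 7 lower at the unadjusted threshold. Counts over all windows are not given here for the fit without WT replicate 2 or, at the unadjusted threshold, for the covariate. These member counts are therefore not read as a trait of members. The gene-end share moved with genotype, as given above, and its part in the gains was not tested beyond this fit.

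The median gain was 0.09 for members and 0.23 for all windows. For members it depended on single libraries, at −0.05 without WT replicate 2, 0.02 without KO replicate 1, 0.17 without KO replicate 2 and 0.25 without WT replicate 1. With the covariate it was 0.01 for members and 0.03 for all windows. With all 6 libraries it was 0.10 for head-to-head ends, 0.10 for head-to-tail ends, −0.01 for tail-to-tail ends, 0.26 for single 5′ ends and 0.01 for single 3′ ends. The per-library difference between the median of members and that of single ends was 0.29 ± 0.15 in KO and 0.46 ± 0.21 in WT (SD, n = 3 each), a difference of −0.17 that did not pass the test (two-sided exact permutation test, p = 0.4, where 3 against 3 cannot go below 0.1). The share of open members was 52.7% ± 0.85 in KO and 50.8% ± 1.67 in WT (SD, n = 3 each, exact permutation test, p = 0.2), and that of head-to-head ends was 90.3% ± 0.948 in KO and 87.1% ± 2.84 in WT (exact permutation test, n = 3 each, p = 0.3). The genotypes overlapped in both shares. For members KO replicate 3 had 51.7% and WT replicate 1 52.6%, and for head-to-head ends KO replicate 2 had 89.7% and WT replicate 1 89.8%. Both shares were higher in KO in each of the 3 pairs of libraries with the same replicate number, which the labels do not give as a pairing. So was the share of open single 5′ ends, at 46.4%, 47.1% and 42.1% in KO and 41.7%, 40.6% and 40.0% in WT.

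**Figure D4:**
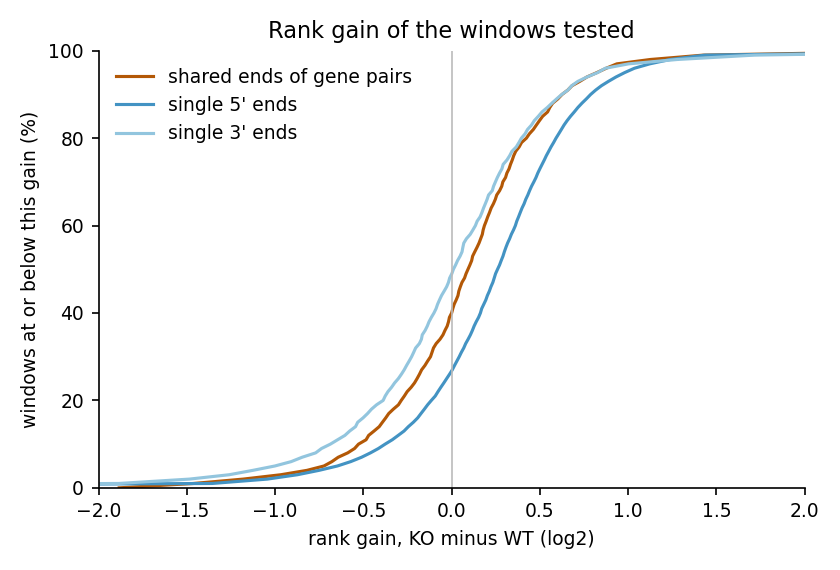
Cumulative share of windows (y axis, %) by rank gain in KO over WT (x axis, log2), for the 1264 members tested and for single 5′ and 3′ ends. The median gain is 0.09 for members, against 0.26 for single 5′ ends and 0.01 for single 3′ ends, and the curves cross in the tails.

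Widths at head-to-head ends, and summits at head-to-head ends and over all members, separated the libraries of the 2 genotypes without overlap, at the smallest p the design allows. The median width of head-to-head intervals was 861 ± 29.1 bp in KO and 934 ± 23.2 bp in WT (SD, n = 3 each, exact permutation test, p = 0.1). At single 5′ ends it was 755, 789 and 740 bp in KO and 824, 821 and 801 bp in WT, also without overlap. At single 3′ ends it was 390, 388 and 388.5 bp in KO and 446, 417.5 and 426 bp in WT. The separation in width was therefore not particular to head-to-head ends. The median distance of the summit from the middle between the starts was 75.5 ± 2.60 bp in KO and 66.5 ± 1.32 bp in WT at head-to-head ends (exact permutation test, p = 0.1), and 148.5 ± 3.77 bp in KO and 140.6 ± 2.96 bp in WT over all members (exact permutation test, p = 0.1). At head-to-tail ends this distance overlapped between the genotypes, at 276.5, 288 and 288.5 bp in KO and 274, 287 and 289.75 bp in WT. It also overlapped at tail-to-tail ends. The distance of the summit from a single 5′ end was 100, 94 and 94 bp in KO and 95, 97 and 98 bp in WT, also with overlap. The median rank of head-to-head ends did not separate the genotypes, at 17518 ± 3598 in KO and 18868 ± 5556 in WT (SD, n = 3 each, exact permutation test, p = 0.8).

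Pairs among the 5 of smallest p in each direction are given by their values, since none was called. Kctd19/Lrrc36 ranked 3163, 1740 and 8966 in the KO libraries and 41150, 11969 and 36815 in the WT libraries. All KO ranks were better than all WT ranks, with a gain of 2.84 ± 0.65 (SE, n = 3 each, limma, adjusted p = 0.267). Kctd19 is known for its part in meiosis.

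Mapkbp1/Jmjd7 ranked 8894, 8858 and 5804 in the KO libraries and 27705, 28403 and 24327 in the WT libraries. The replicates of each genotype lay close together, and the gain was 1.80 ± 0.38 (SE, limma, adjusted p = 0.216). Srcap/Tmem265, with the chromatin remodeller Srcap, ranked 10341, 7634 and 22436 in the KO libraries and 73501, 26817 and 32273 in the WT libraries, a gain of 1.72 ± 0.47. Paqr7/Aunip and Pafah1b2/Sik3 had gains of 0.82 ± 0.24 and 0.97 ± 0.29, also without overlap of the genotypes (limma, adjusted p = 0.316 each).

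In the other direction, Gla/Hnrnph2 ranked 28288, 23089 and 20149 in the KO libraries and 5003, 13227 and 7708 in the WT libraries. Gla codes for the lysosomal enzyme alpha-galactosidase A and Hnrnph2 for an RNA-binding protein, and the gain was −1.56 ± 0.44 (SE, limma, adjusted p = 0.316) without overlap of the genotypes. Idh3a/Acsbg1, with a subunit of mitochondrial isocitrate dehydrogenase, ranked 71731, 74388 and 50017 in the KO libraries and 36369, 14749 and 22877 in the WT libraries, a gain of −1.48 ± 0.33. The genotypes did not overlap at Idh3a/Acsbg1. Treh/Phldb1, with the KO ranks past 100000 set to 100001, had a gain of −0.70 ± 0.18, and of 0.071 with windows widened by 1000 bp. Only the 3 WT libraries held it among the best 100000, so it was tested through them alone. Its KO values were then all the same, so its small p and lack of overlap were set in part by that filter.

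Taf6/Cnpy4, with a subunit of the general transcription factor TFIID, ranked 44727, 43024 and 18554 in the KO libraries and 11165, 20461 and 10859 in the WT libraries. The genotypes overlapped through KO replicate 3, and the gain was −1.28 ± 0.42 (SE, limma, adjusted p = 0.332). Without KO replicate 3 it was −1.70.

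**Figure D5:**
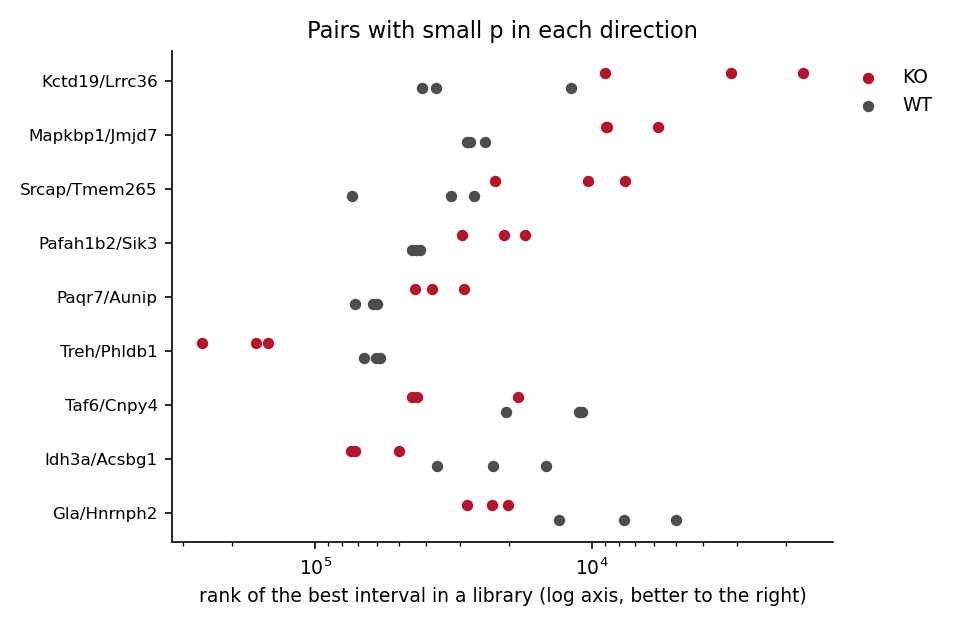
Rank of the best interval in each library (x axis, log axis, better ranks to the right) for 9 pairs among the 5 of smallest p in each direction. Each point is a library, with KO above WT within a pair. At 8 of the 9 pairs the points of the 2 genotypes do not overlap, while at Taf6/Cnpy4 the best KO rank, 18554, is better than the worst WT rank, 20461.

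By gene group, no member was called in any of the 16 lists. The median gain of the lists with 10 or more members tested ran from −0.44 to 0.19, beside 0.09 for all members and 0.23 for all windows. The lowest was that of replication-dependent histones, whose genes supply the core histones during DNA replication: 7 of the 24 members tested had a positive and 17 a negative gain. Some of these members share an interval, so they are not separate counts. With the gene-end share of each library as a covariate, the histone median was −0.0035, beside 0.012 for all members. Over the 24 histone members the median rank was 30437, 42738 and 22729 in the KO libraries and 14150, 34429 and 23082 in the WT libraries, so that KO replicate 3 was better than WT replicates 2 and 3. H2ac15/H2bc15 ranked 62132, 82261 and 14609 in the KO libraries and 8883, 30580 and 8561 in the WT libraries. H2bc7/H2ac7 and H2ac7/H3c4 shared an interval that went the other way, with ranks 4536, 8262 and 12137 in the KO libraries and 22896, 14436 and 22553 in the WT libraries.

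The medians of cell cycle and repair genes changed sign with the libraries used. Members with DREAM targets of G1/S had a median gain of −0.12 (12 tested, 5 positive, 7 negative), those with G2/M targets 0.00 (18 tested, 10 positive, 8 negative) and those with DNA repair genes −0.09 (40 tested, 17 positive, 23 negative). When 1 library was left out they ran from −0.39 to 0.22 for G1/S targets, from −0.17 to 0.21 for G2/M targets and from −0.42 to 0.33 for DNA repair genes, each lowest without WT replicate 2. Wrn/Purg, with a repair helicase, ranked 15301, 19162 and 29757 in the KO libraries and 43621, 38246 and 45330 in the WT libraries, a gain of 1.04 ± 0.31 (SE, limma, adjusted p = 0.316). Hmmr/Nudcd2, with a spindle protein, ranked 25100, 26094 and 5642 in the KO libraries and 1750, 14880 and 4435 in the WT libraries, a gain of −1.67 ± 0.78 (SE, limma, adjusted p = 0.373).

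Mitochondrial genes had a median of 0.13 (79 tested, 47 positive, 32 negative), cytosolic ribosome genes 0.14 (22 tested), splicing and RNA polymerase genes 0.09 (48 tested) and genes of cohesin and chromatin 0.08 (17 tested). Without WT replicate 2 these 4 medians were −0.08, −0.04, −0.08 and −0.05, and without WT replicate 1 they were 0.35, 0.36, 0.28 and 0.17. Ndufa4/Phf14, with a subunit of the respiratory chain, ranked 15119, 19055 and 26541 in the KO libraries and 31201, 41824 and 40683 in the WT libraries, a gain of 0.93 ± 0.31 (SE, limma, adjusted p = 0.332). Prkag1/Kmt2d, with a histone methyltransferase, ranked 3862, 3635 and 6446 in the KO libraries and 13833, 11631 and 12120 in the WT libraries, a gain of 1.48 ± 0.48 (SE, limma, adjusted p = 0.332). KO and WT did not overlap at either pair. The 4 urothelial members tested had a median of −0.06 and the 3 with markers of stroma, vessels or leukocytes −0.09.

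No member had an interval among the best 100000 of all 3 libraries of one genotype and none in the whole lists of the other. The largest spread over libraries belonged to Ccna2/Bbs7, with the cyclin gene Ccna2, where WT replicate 1 alone had an interval, at rank 459. In the other 5 libraries an open interval with a rank of 429 to 3750 lay 71 to 107 bp outside the window, so that the libraries differed in whether the interval reached the window. At H2ac12/H2bc12 the ranks were 9902, 10397 and 479 in the KO libraries and 466, 1644 and 1281 in the WT libraries, with KO replicate 3 near the WT libraries.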

How the data were processed

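ATAC-seq peak lists of 3 Stag2-KO and 3 Stag2-WT libraries were analysed, 1 list per library. Per the submitters' processing notes, the build was mm10 and the tools included DiffBind, whose output was not used. The aligner and caller were not given in the sources used here. Columns used were deposited by the authors: a ratio (fold over local background), the −log10 of p, and the summit position. The −log10 of q and a display score, also deposited by the authors, were not used. The list of KO replicate 1 started at a −log10 p of 3.00 and the others at 2.00. Because fold and p change with depth, they served only for ranks within a list.

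Peaks that shared an interval were merged, and intervals were ranked by fold (ties by −log10 p, then position). The best 50000 were used for shares and the best 100000 for ranks, with rank 100001 for a window without one. A fold over local background is low where the surroundings are open too. Gene spans and promoters came from RefSeq tables of GRCm38.p6. Of 21627 spans, 110 placed on other scaffolds were left out. Strand came from the promoter table, and 582 members lacked it for 1 or both genes. They include the 22 members on chromosome 18, whose genes' strand was not analysed here, so its ends are in no orientation class and among no single 5′ or 3′ ends. Histone genes were matched by synonyms also.

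Ranks in KO and WT were compared in R 4.3.3 with limma 3.58.1 (moderated variances, trend, Benjamini-Hochberg adjustment over all windows with an interval in at least 3 libraries), tested beforehand on simulated lists with known changes. The simulated lists all came from the list of WT replicate 2 with independent noise. They therefore cannot say how many changes would be found at the spread between the real libraries. Shares were compared within libraries by exact sign-flip permutation tests, and between genotypes by exact permutation tests. Python 3.11.15, NumPy 2.4.6, pandas 2.3.3, SciPy 1.17.1 and matplotlib 3.10.9 were used. Same-numbered KO and WT libraries deviated together in part, with correlations of their deviations from the group means of 0.148, 0.706 and 0.440. KO replicate 3 was closer to WT replicate 1, at 0.499. The labels do not say that a number marks a pair. The replicate number was taken as a possible pairing found in the data, and the fit with it as a block is given where it moves a count. Pairs were named where they had the 5 smallest p in a direction, the 10 best mean ranks, the 5 largest spreads, a textbook pairing, the smallest p in a gene list or a gap at the limit, and 1 pair named by this rule is not reported here. The members, gene lists and tests were chosen with earlier results of these data known.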

Additional observations from a re-analysis of the deposited data

How the results depend on the processing

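Every difference in shares, widths, folds and summits between classes kept its sign under each alternative run. Shares ranked by −log10 p, shares without predicted, olfactory and keratin-associated genes and shares by CpG content were added after seeing the data. Leaving out 1 library at a time leaves 5, whose smallest exact permutation p is 0.0625, so no difference could pass. Over those fits the difference was 28.1 to 28.6 percentage points for members minus single ends (1.09 to 1.14 in median −log2 rank), 80.9 to 82.6 for head to head minus tail to tail, 33.9 to 34.7 for head to head minus head to tail, 45.2 to 46.4 for head to head and 10.9 to 11.9 for head to tail minus single 5′ ends, and 2.88 to 3.19 for tail to tail minus single 3′ ends. Head to head minus single 5′ ends it was 5.82 to 8.14 points among the best 5000, 104 to 115 bp in width and 2.53 to 2.84 in fold. For windows holding 2 or more summits it was 16.7 to 17.3 points. Over the other alternatives the difference was 0.509 to 6.15 points for tail to tail minus single 3′ ends and 6.36 to 14.7 for head to tail minus single 5′ ends, in both lowest with shares in the best 25000, and 6.25 to 26.1 among the best 5000, highest when ranked by −log10 p. With a rank list of 50000 the difference in median −log2 rank was 0.12 (exact permutation test, p = 0.0625), and by construction more members then have no rank.

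The KO minus WT difference in the share of open tail-to-tail ends was −0.540 points among the best 50000, 0.309 among the best 25000 and 0.540 among the best 100000. The median rank of head-to-head ends differed by −4110 to 1446 when 1 library was left out. Members called were 0 in each direction under all other settings, and 0 to 19 higher and 0 to 9 lower without 1 library, 0 to 7 of them in a gene list. Of all windows, 0 to 5 were called higher and 0 to 15 lower, among them 3 and 7 with the replicate block and 0 and 2 with a rank list of 50000, and 0 to 637 and 0 to 125 without 1 library. Ranking by −log10 p gave 114 members higher and 89 lower at the unadjusted threshold, against 72 and 17, without a count over all windows beside them. The gain of Treh/Phldb1 was 0.071 with windows widened by 1000 bp, and the median gain of members ran from −0.05 to 0.25 without 1 library. The median gain of histone members ran from −1.04 to 0.00. The causes were not tested. The depth of the libraries is unknown, which limits what can be said of weak intervals.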
